A study of Mus musculus with 6 samples.

Results

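The cathepsins and the subunits of the vacuolar ATPase (V-ATPase) were described in whole mouse lung after naphthalene, a compound that injures the conducting airway because club cells convert it to a toxic metabolite. Members were all genes whose annotated symbol is Cts followed by letters or digits, or starts with Atp6v or Atp6ap, each read by its probe set with the highest mean over the 6 arrays. This gave 40 genes, 16 cathepsins and 24 V-ATPase genes, of 16537 genes with a probe set of their own. Atp6v0c, the proton-carrying ring subunit, was not among them and is not analysed here. Atp6v1fnb, a neighbour of Atp6v1f, met the rule by its name only and is not a known V-ATPase subunit.

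Falcor is a long non-coding RNA gene next to Foxa2, and 3 arrays labelled Falcor-null were set against 3 labelled wild type. All 6 samples were whole lung of the strain CD1_C57Bl6_mix after naphthalene. Replicates 1, 2 and 3 of Falcor-null carried the days 31, 32 and 33 after naphthalene in their labels, and those of wild type the days 28, 29 and 30, so day and genotype cannot be told apart. Age was not given in the labels, nor was it said whether samples came from separate animals. The p-values here set each group difference only against the spread of these samples within their groups, and that spread may be technical.

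The Falcor probe set itself (9030622O22Rik) was higher on the arrays labelled Falcor-null, at 6.82, 6.34 and 6.32, against 4.69, 5.01 and 5.45 on the wild-type arrays (log2 signal). Its log2 difference was 1.44 with a limma adjusted p of 0.0423, so it went against the label; which piece of the locus the null allele lacks was not analysed here. Foxa2, the transcription factor gene beside it, read 8.19, 8.15 and 8.05 on the Falcor-null arrays, against 7.85, 7.89 and 7.84 on the wild-type arrays (log2 difference 0.27, adjusted p 0.175). Every direction below is that of the arrays as labelled. The lung identity genes Sftpc and Scgb1a1 read between 13.55 and 13.63 on all 6 arrays, close to the highest signals of the arrays, and Nkx2-1, a factor of lung epithelium, read between 9.31 and 9.41. Of the 8 lung identity genes 6 were higher on the Falcor-null arrays with a median log2 difference of 0.14, none passing. Array medians over 24173 probe sets lay between 6.69 and 6.70 for Falcor-null and between 6.72 and 6.74 for wild type.

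Cathepsins are proteases that work mostly in the acid interior of lysosomes, where they break down proteins taken up by the cell or delivered by autophagy. The V-ATPase makes that interior acid: its V1 domain in the cytosol splits ATP, and its V0 domain in the membrane carries protons across. In the lung, macrophages are rich in both, alveolar type 2 cells use cathepsin H to process surfactant protein, and transcription factors of the MiT/TFE family (Tfeb, Tfe3, Mitf and Tfec) bind an E-box in the promoters of many lysosomal genes.

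That E-box was looked for in RefSeq promoters (assembly GRCm38.p6, 250 bases before to 50 after the gene's start), which held 30 of the 40 members. The extended form TCACGTGA, which reads the same on both strands, stood in 5 of these 30 genes and in 1.12% of the 27025 genes of the promoter table. The shorter CACGTG, which the extended form contains, stood in 9 of the 30 and in 8.09% of the 27025. The 5 promoters with the extended form are printed below 5′ to 3′ on the gene's strand, with the motif in capitals, because their genes are compared with each other in the results; a match describes the letters and is no evidence of binding. A second copy in the Ctsa promoter, starting at base 5 of the gene, lies past the printed stretch, and the window at another annotated start of Ctsa held none. Ctsk and Ctss, a pair of cathepsin genes with 1 annotated gene between their starts, are printed for contrast over the 60 bases before their starts, and neither promoter window held either form of the motif.
Ctsa: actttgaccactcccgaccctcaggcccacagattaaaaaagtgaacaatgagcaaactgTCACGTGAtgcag
Ctsd: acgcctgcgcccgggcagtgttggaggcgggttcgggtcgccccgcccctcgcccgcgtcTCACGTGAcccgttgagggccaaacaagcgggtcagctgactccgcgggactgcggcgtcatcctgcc
Atp6v1a: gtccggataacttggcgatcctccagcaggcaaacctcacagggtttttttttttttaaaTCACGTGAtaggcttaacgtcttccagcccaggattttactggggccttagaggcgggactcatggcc
Atp6v0d1: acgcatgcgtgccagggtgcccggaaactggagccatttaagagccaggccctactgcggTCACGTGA
Atp6v0e: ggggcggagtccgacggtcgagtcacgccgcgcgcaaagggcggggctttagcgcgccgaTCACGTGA
Ctsk: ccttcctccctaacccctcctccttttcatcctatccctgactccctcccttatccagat
Ctss: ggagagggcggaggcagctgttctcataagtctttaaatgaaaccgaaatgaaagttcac
The windows lie at chr2:164833700-164833772 on the plus strand for Ctsa, chr7:142387859-142387986 on the minus strand for Ctsd, chr16:44139324-44139451 on the minus strand for Atp6v1a, chr8:105566061-105566128 on the minus strand for Atp6v0d1, chr17:26676338-26676405 on the plus strand for Atp6v0e, chr3:95499150-95499209 on the plus strand for Ctsk and chr3:95526726-95526785 on the plus strand for Ctss.

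Most cathepsins and V-ATPase genes read lower on the arrays labelled Falcor-null, but no member passed the test over all genes. At a limma adjusted p under 0.05, 0 of the 40 passed, against 0.556% of all 16537 genes, or 0.46% lower and 0.0968% higher. At an unadjusted limma p under 0.05 there were 11 members, all lower, which is 27.5% of the members against 7.65% of all genes lower and 6.11% higher at that p. They were 8 of the 16 cathepsins (Ctsk, Ctsc, Ctss, Ctsb, Ctsh, Ctsz, Ctsa and Ctse) and 3 of the 24 V-ATPase genes (Atp6v0a4, Atp6v0d2 and Atp6v1b2). That is 50% of the cathepsins but 12.5% of the V-ATPase genes, against 13.8% of all genes in either direction. Without Falcor-null replicate 1 the count was 4, without Falcor-null replicate 2 it was 7 with 1 of them higher, and without wild type replicate 2 it was 7. The arrays of the groups did not overlap for 10 members, all lower, or 25% of them, against 10.6% of all genes not overlapping and lower and 8.96% not overlapping and higher. By family these were 37.5% of the cathepsins and 16.7% of the V-ATPase genes, against 19.5% of all genes in either direction.

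Of the 16 cathepsins 13 were lower, with a median log2 difference of -0.34; 12 were lower when arrays were centred on their medians or normalized to equal quantiles again. Of the 24 V-ATPase genes 19 were lower, with a median of -0.14; 21 were lower after a second quantile normalization. The median over all genes tested was 0.00, and 49.2% of all genes were lower. The V-ATPase median rested partly on single arrays, at -0.07 without wild type replicate 2 and -0.09 without Falcor-null replicate 3. Because these are whole-lung samples, fewer cells of a type and less RNA per cell cannot be told apart.

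**Figure D1:**
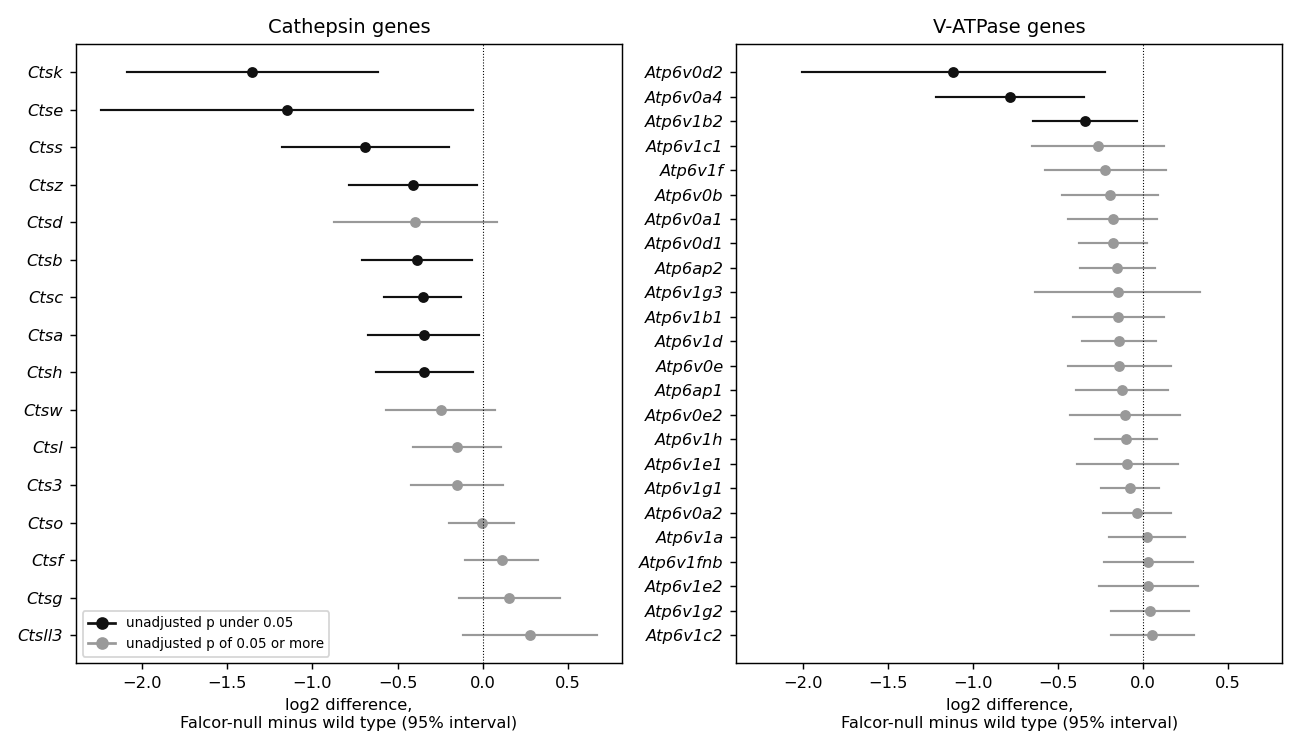
Log2 difference, Falcor-null minus wild type, for each cathepsin (left) and V-ATPase gene (right), with points for the limma estimate and lines for its 95% interval. Black marks the 11 genes with an unadjusted p under 0.05, all left of 0, from -1.35 for Ctsk to -0.34 for Ctsh; none passed after adjustment.

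Among the cysteine cathepsins, the largest class of the family, 9 of 10 measured members were lower, with a median log2 difference of -0.35. Ctsk, a collagen-degrading cathepsin best known from osteoclasts (probe set 17400365), read 7.02, 6.99 and 7.87 on the arrays labelled Falcor-null, against 8.14, 9.20 and 8.61 on the wild-type arrays. The groups did not overlap, and Falcor-null replicate 3 lay closest to wild type. Its log2 difference was -1.35 (SE 0.32, 95% interval -2.09 to -0.61), or 2.56-fold lower, with an adjusted p of 0.123. That was the widest difference among the cathepsins, and with each array left out in turn it lay between -1.64 and -1.08.

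Ctss, which trims the invariant chain of MHC class II in antigen-presenting cells (probe set 17400375), gave 10.31, 10.61 and 11.05 on the Falcor-null arrays, against 11.02, 11.57 and 11.44 on the wild-type arrays. Here the groups overlapped, since Falcor-null replicate 3 lay just above wild type replicate 1. The log2 difference was -0.69 (SE 0.21, adjusted p 0.217). As for Ctsk, Falcor-null replicate 3 was the highest of its group and wild type replicate 2 the highest of all 6.

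Ctsc, or dipeptidyl peptidase I, which activates the serine proteases of granules in neutrophils, mast cells and cytotoxic lymphocytes, read 10.64, 10.83 and 10.65 on the Falcor-null arrays. On the wild-type arrays it read 10.93, 11.16 and 11.09. These groups did not overlap, and the spread within each was small (SD 0.11 for Falcor-null and 0.12 for wild type, n = 3 each). The log2 difference was -0.35 (SE 0.10), with an adjusted p of 0.176. Ctsw, a cathepsin of cytotoxic lymphocytes, gave 5.91, 6.19 and 6.07 on the Falcor-null arrays, against 6.47, 6.02 and 6.43 on the wild-type arrays, with overlapping groups and a difference of -0.25 (adjusted p 0.485) that was -0.39 without wild type replicate 2.

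Ctsb, a broadly expressed lysosomal endopeptidase that also trims peptide ends, read 11.55, 11.67 and 11.76 on the Falcor-null arrays, against 11.88, 12.35 and 11.91 on the wild-type arrays. Ctsz, a carboxypeptidase of myeloid cells, read 10.39, 10.42 and 10.51 on the Falcor-null arrays, against 10.53, 11.20 and 10.82 on the wild-type arrays. Neither gene had overlapping groups, and in both the wild-type spread was wider than that of Falcor-null, with wild type replicate 2 highest. The log2 differences were -0.39 for Ctsb (SE 0.14, adjusted p 0.280) and -0.41 for Ctsz (SE 0.16, adjusted p 0.320), and without wild type replicate 2 they were -0.23 for each.

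Ctsh, the aminopeptidase of macrophages and alveolar type 2 cells, read 10.05, 10.28 and 10.05 on the Falcor-null arrays, against 10.70, 10.36 and 10.35 on the wild-type arrays. It too had groups that did not overlap, here with wild type replicate 1 standing highest. The difference was -0.34 (SE 0.12, adjusted p 0.281), and -0.22 without wild type replicate 1. The 10 alveolar type 2 markers beside it divided into 5 higher and 5 lower with a median log2 difference of 0.02. Their mean log2 signal was 11.78, 11.77 and 11.64 on the Falcor-null arrays, against 11.70, 11.66 and 11.87 on the wild-type arrays, with overlap. Sftpd, the surfactant protein D gene, was the only one of them without overlap, at -0.47 (adjusted p 0.210).

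The other 3 cysteine cathepsins lay close to 0. Ctsl, a potent endopeptidase related to Ctsk and Ctss, differed by -0.15 with an interval of -0.41 to 0.11, and by -0.05 without wild type replicate 2. Ctso gave -0.01 with an interval of -0.20 to 0.19, and Ctsf, a cathepsin with a long propeptide, gave 0.11 with an interval of -0.10 to 0.33. None of these 3 intervals reached the -0.69 of Ctss, but that of Ctsl held the -0.39 of Ctsb, the -0.35 of Ctsc and the -0.34 of Ctsh.

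The aspartic cathepsins were lower on average with wide spreads. Ctsd, the main aspartic protease of lysosomes, read 11.40, 11.72 and 12.13 on the Falcor-null arrays, against 11.90, 12.44 and 12.10 on the wild-type arrays, and Falcor-null replicate 3 lay above wild type replicates 1 and 3. Its difference of -0.40 (SE 0.21) had an adjusted p of 0.450, and it was -0.25 without wild type replicate 2 and -0.22 without Falcor-null replicate 1. Ctse, which is not a classical lysosomal enzyme and is found in epithelia and immune cells, read 5.78, 7.42 and 7.47 on the Falcor-null arrays, against 8.37, 7.44 and 8.31 on the wild-type arrays. Wild type replicate 2 fell between Falcor-null replicates 2 and 3, so that the groups overlapped. The difference of -1.15 (SE 0.47, adjusted p 0.337) was -0.60 without Falcor-null replicate 1.

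Of the serine cathepsins, Ctsa, the protective protein that stabilises lysosomal beta-galactosidase and neuraminidase, read 9.93, 10.03 and 10.07 on the Falcor-null arrays, against 10.16, 10.67 and 10.23 on the wild-type arrays. These groups did not overlap, with a difference of -0.35 (SE 0.14, adjusted p 0.334) that was -0.19 without wild type replicate 2. Ctsg, the granule protease of neutrophil precursors, lay at the dim end of the arrays at 4.37 to 4.78 on the Falcor-null arrays and 4.31 to 4.60 on the wild-type arrays, with a difference of 0.16 (adjusted p 0.645). Cts3 and Ctsll3, rodent relatives of cathepsin L, were as dim, at 4.26 to 5.12 on the Falcor-null arrays and 4.40 to 4.75 on the wild-type arrays.

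**Figure D2:**
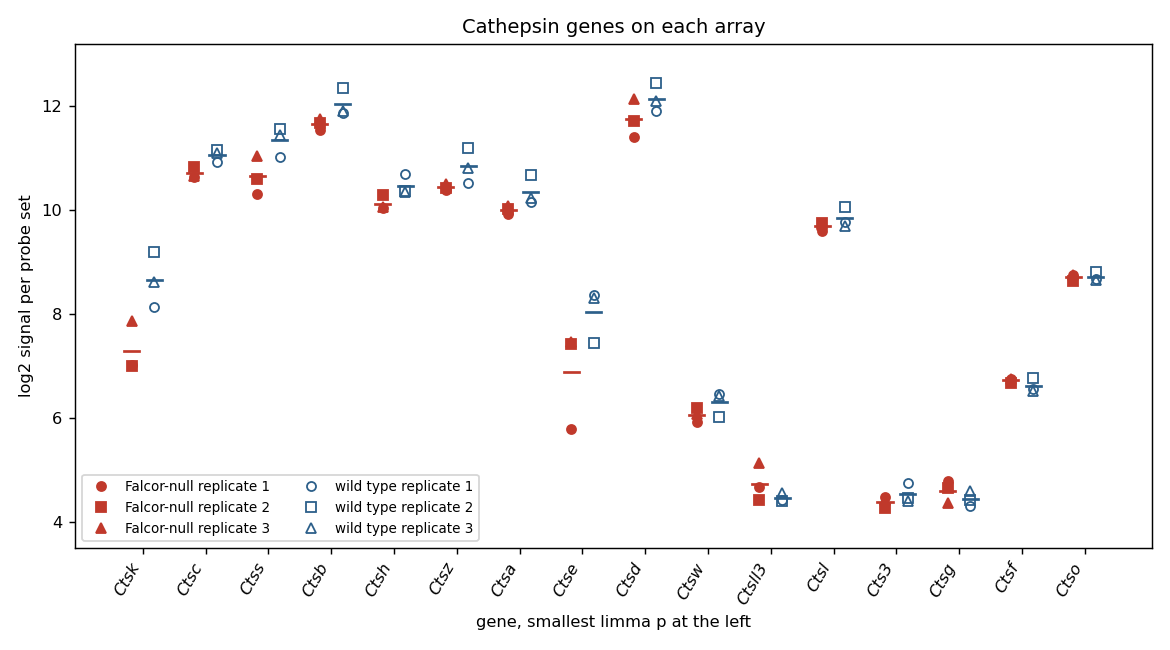
Log2 signal of the 16 cathepsins on each array, with Falcor-null (filled red) left of wild type (open blue) for each gene, horizontal bars at the group means of 3 arrays and 1 marker shape per replicate number. Ctsk separates most, with all Falcor-null arrays at or below 7.87 and all wild-type arrays at or above 8.14, and wild type replicate 2 (open square) is the highest of the 6 arrays for 10 of the 16 genes.

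In the V-ATPase, all 8 measured V0 subunits were lower and 9 of 13 V1 subunits were, with median log2 differences of -0.18 for V0 and -0.10 for V1. The widest differences were in isoforms with a restricted tissue range. Atp6v0d2, the d subunit isoform known from osteoclasts and macrophages (probe set 17423577), read 8.41, 8.93 and 9.65 on the Falcor-null arrays, against 9.53, 10.78 and 10.03 on the wild-type arrays. Falcor-null replicate 3 lay above wild type replicate 1, and the difference was -1.11 (SE 0.38, 2.17-fold lower, adjusted p 0.259). Atp6v0d1, the isoform present in most cells, read 9.58, 9.59 and 9.50 on the Falcor-null arrays, against 9.63, 9.86 and 9.71 on the wild-type arrays, without overlap, and differed by -0.18 (SE 0.09, adjusted p 0.419), or -0.11 without wild type replicate 2.

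Atp6v0a4, the a subunit isoform known from acid-secreting cells of kidney and other epithelia (probe set 17465942), read 6.08, 6.21 and 5.85 on the Falcor-null arrays, against 6.58, 6.65 and 7.25 on the wild-type arrays. The groups did not overlap, and unlike in most other members wild type replicate 3 stood highest. Its difference was -0.78 (SE 0.19, 95% interval -1.22 to -0.35), 1.72-fold lower, with an adjusted p of 0.129. Its relative Atp6v0a1 read 9.70, 9.59 and 9.40 on the Falcor-null arrays, against 9.59, 9.88 and 9.76 on the wild-type arrays, with overlapping groups and a difference of -0.18 (SE 0.11, adjusted p 0.534). That was -0.10 without Falcor-null replicate 3 and -0.11 without wild type replicate 2. Atp6v0a2 differed by -0.04, with an interval of -0.23 to 0.16.

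Tcirg1, the a3 isoform that osteoclasts and macrophages use and that the symbol rule leaves out, differed by -0.22 (adjusted p 0.608). The 9 measured markers of ionocytes and intercalated cells, which use Atp6v0a4 and Atp6v1b1, had a median log2 difference of -0.05, with 4 higher and 5 lower. Their mean log2 signal was 6.05, 6.19 and 6.03 on the Falcor-null arrays, against 6.38, 6.18 and 6.28 on the wild-type arrays, with overlap. Their summed signal was 708 to 845 on the Falcor-null arrays and 938 to 991 on the wild-type arrays. The gap in sums leans on Slc26a4, at 5.72, 7.04 and 6.89 on the Falcor-null arrays, against 7.42, 7.48 and 8.22 on the wild-type arrays. It does not show a drop across the list. Stap1, Slc26a4 and Foxi1 had the smallest p of this list, none with overlapping groups and none passing. Foxi1, their defining factor, averaged 5.85 on the Falcor-null arrays and 5.64 on the wild-type arrays. Stap1 averaged 5.83 on the Falcor-null arrays and 6.49 on the wild-type arrays. Slc26a4, also a gene of other airway cells, averaged 6.55 on the Falcor-null arrays and 7.71 on the wild-type arrays. The part of these cells in the Atp6v0a4 value was not tested.

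Within an array, the log2 ratio of Atp6v0d2 to Atp6v0d1 differed by -0.94 between the means of Falcor-null and wild type (exact permutation p 0.2, two-sided), and that of Atp6v0a4 to Atp6v0a1 differed by -0.60 (exact permutation p 0.1). The ratio of Atp6v0a4 to Atp6v0a2 differed by -0.75 (exact permutation p 0.1), that of Atp6v1b2 to Atp6v1b1 by -0.20 (exact permutation p 0.5) and that of Atp6v1c1 to Atp6v1c2 by -0.32 (exact permutation p 0.4). With 3 arrays against 3 such a test cannot go below 0.1, and over the 5 ratios the Benjamini-Hochberg adjusted values were between 0.25 and 0.5. No ratio passed, and none could have passed at this number of arrays. Atp6v0d2, Atp6v0a4 and Atp6v1b2 were also the V-ATPase genes with an unadjusted limma p under 0.05 on these same arrays. Their ratios are therefore no independent check, and both Atp6v0a4 ratios share that gene.

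In the V1 domain no subunit passed. Atp6v1a, the subunit that binds and splits ATP, read 9.24, 9.32 and 9.28 on the Falcor-null arrays, against 9.15, 9.43 and 9.18 on the wild-type arrays, with overlapping groups. Its difference of 0.02 had an interval of -0.20 to 0.25. Its partner in the catalytic ring, Atp6v1b2, read 9.81, 9.79 and 9.68 on the Falcor-null arrays, against 9.89, 10.38 and 10.03 on the wild-type arrays, without overlap, and differed by -0.34 (SE 0.13, adjusted p 0.305); without wild type replicate 2 this was -0.20. A second, dimmer probe set of Atp6v1b2 gave -0.15.

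Atp6v1c1, a subunit that takes part in the reversible joining of V1 to V0, read 8.77, 8.72 and 8.72 on the Falcor-null arrays, against 8.83, 9.41 and 8.77 on the wild-type arrays. Here wild type replicate 2 alone stood apart, and the difference of -0.26 (SE 0.17, adjusted p 0.537) was -0.06 without it. The stalk and regulatory subunits Atp6v1d, Atp6v1e1, Atp6v1g1 and Atp6v1h differed by -0.14, -0.09, -0.08 and -0.10, with adjusted p-values from 0.55 to 0.806. The brightest probe set of Atp6v1g1 read 8.44, 8.49 and 8.47 on the Falcor-null arrays, against 8.48, 8.61 and 8.54 on the wild-type arrays. The 3 probe sets of Atp6v1g1 differed in sign, at -0.08 for the brightest and -0.04 and 0.04 for the others. The epithelial, neuronal and testis isoforms Atp6v1b1, Atp6v1c2, Atp6v1g2, Atp6v1g3 and Atp6v1e2 lay between -0.15 and 0.05, Atp6v1f was at -0.22 (adjusted p 0.573) and Atp6v1fnb at 0.03.

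The other V0 subunits and the accessory proteins were slightly lower without passing. Atp6v0b, part of the proton-carrying ring, read 9.98, 9.74 and 9.92 on the Falcor-null arrays, against 10.12, 10.24 and 9.85 on the wild-type arrays, and differed by -0.20 (SE 0.12, adjusted p 0.531). It was -0.31 without wild type replicate 3, but -0.13 when Falcor-null replicate 2 was left out and -0.11 when wild type replicate 2 was. Atp6v0e, a small membrane subunit, read 9.72, 9.71 and 9.52 on the Falcor-null arrays, against 9.61, 10.05 and 9.71 on the wild-type arrays, with overlapping groups and a difference of -0.14 (adjusted p 0.697), and its relative Atp6v0e2 differed by -0.11 (adjusted p 0.789). Atp6ap1, which helps the V0 domain assemble, read 10.14, 10.22 and 10.07 on the Falcor-null arrays, against 10.11, 10.50 and 10.19 on the wild-type arrays (difference -0.12, adjusted p 0.699). In both Atp6v0e and Atp6ap1 only wild type replicate 2 lay above all 3 Falcor-null arrays, and without it each difference was -0.01. Atp6ap2, the prorenin receptor, read 8.65, 8.69 and 8.74 on the Falcor-null arrays, against 8.74, 9.01 and 8.78 on the wild-type arrays, with a difference of -0.15 (adjusted p 0.531) that was -0.07 without wild type replicate 2. Its groups did not overlap, but the highest Falcor-null array and the lowest wild-type array were almost level.

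**Figure D3:**
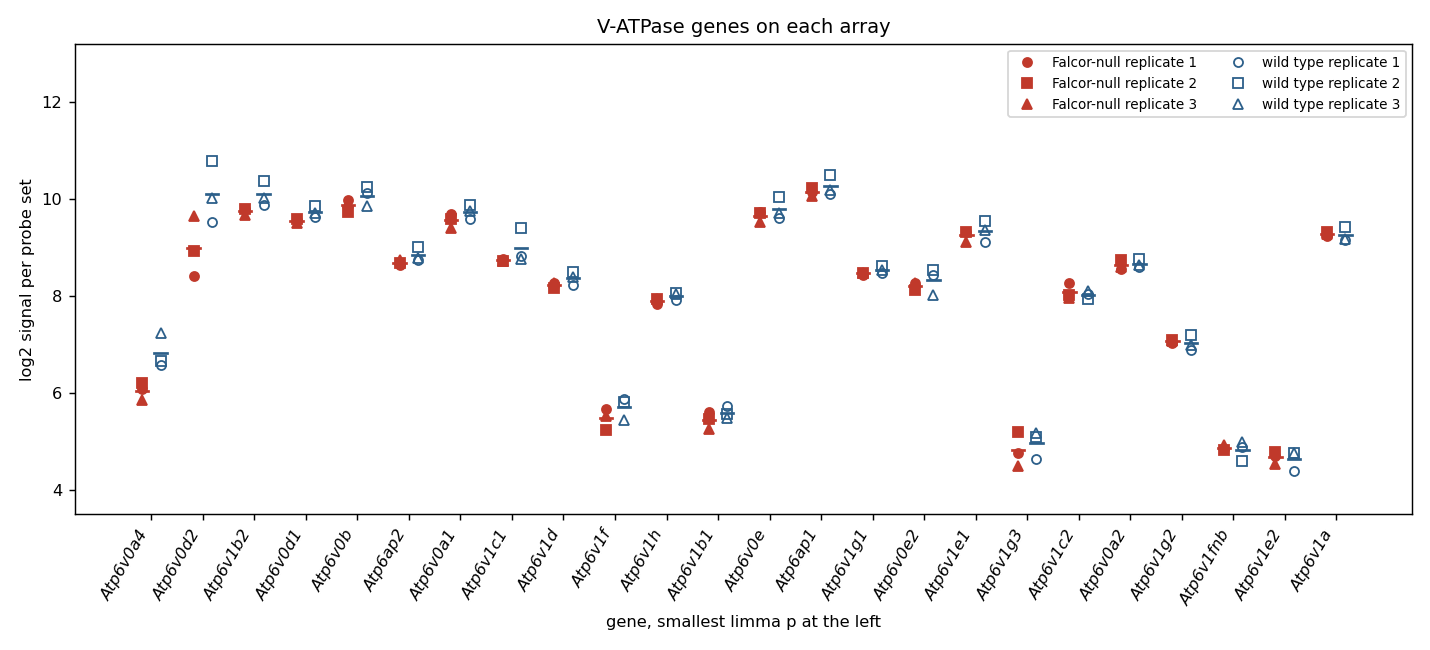
Log2 signal of the 24 V-ATPase genes on each array, drawn as for the cathepsins, with Falcor-null (filled red) left of wild type (open blue). Atp6v0d2 and Atp6v0a4 differ most, by -1.11 and -0.78, and wild type replicate 2 is the highest array for 17 of the 24 genes.

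Of the 5 genes whose promoters hold the extended E-box 4 were lower, with a median log2 difference of -0.18. Ctsa and Ctsd, with the motif at -13 and -99 relative to the gene's start, differed by -0.35 and -0.40 on the log2 scale. Atp6v0d1 and Atp6v0e, with the motif at -4 and 3, differed by -0.18 and -0.14, and Atp6v1a, with the motif at -132, by 0.02. Of the 25 matched members without it 18 were lower, with a median of -0.15 and a range from -1.35 for Ctsk to 0.28 for Ctsll3. Ctsk and Ctss, shown above as neighbours, are among the widest differences of these 25, and Ctso at -0.01 and Atp6v1c2 at 0.05 lack the extended form as well. No test was made between the sets. Ctsb, Ctse, Ctsh, Ctsw, Atp6v0a2, Atp6v0d2, Atp6v1b2, Atp6v1c1, Atp6v1g1 and Atp6v1h had no promoter entry and are in neither set. Among them Ctsb, Ctse, Ctsh, Atp6v0d2 and Atp6v1b2 had an unadjusted limma p under 0.05, so neither median covers the whole of the members. Of the factors that bind this E-box, Tfec gave -0.75 (adjusted p 0.322), Mitf -0.26 (adjusted p 0.307), Tfe3 -0.14 (adjusted p 0.491) and Tfeb 0.03 (adjusted p 0.904).

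The members also followed single arrays. Wild type replicate 2 had the highest signal of the 6 arrays for 27 of the 40 members, or 67.5%, against 17.2% of all genes. Falcor-null replicate 1 had the lowest for 15 members, or 37.5%, against 16.3% of all genes. The mean over the 16 cathepsins was 8.25, 8.41 and 8.55 on the Falcor-null arrays, against 8.66, 8.83 and 8.73 on the wild-type arrays. Over the 24 V-ATPase genes it was 7.99, 8.0 and 7.95 on the Falcor-null arrays, against 8.04, 8.30 and 8.14 on the wild-type arrays. Neither family's means overlapped between the groups, and in both families wild type replicate 2 was the highest.

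Most macrophage markers were lower on the Falcor-null arrays too. All 16 measured alveolar macrophage markers were lower, with a median log2 difference of -0.49; none passed, and their mean was 8.25, 8.37 and 8.76 on the Falcor-null arrays, against 8.71, 9.17 and 9.03 on the wild-type arrays. Falcor-null replicate 3 was the highest of its group and lay just above wild type replicate 1, and wild type replicate 2 was the highest of all. Their summed signal was 9102 to 12111 on the Falcor-null arrays and 13706 to 18964 on the wild-type arrays. Of 15 measured markers of monocytes and interstitial macrophages 14 were lower, with a median of -0.48, none passing. Their summed signal was 11657 to 12773 on the Falcor-null arrays and 12959 to 16943 on the wild-type arrays. Lyz2, the brightest of this list, weighs most in that sum and differed by -0.09 with overlapping groups (adjusted p 0.759). The higher marker was Csf1r, at 0.08 (adjusted p 0.726). The mean of this list was 7.95, 8.02 and 7.98 on the Falcor-null arrays, against 8.29, 8.55 and 8.48 on the wild-type arrays. Within Falcor-null the alveolar list rose from replicate 1 to 3, as did the cathepsin means. The monocyte list and the V-ATPase means did not. The part of macrophages and monocytes in the cathepsin and V-ATPase values was not tested.

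Most other immune markers were lower as well. Among all genes 49.2% were lower, and 0.46% were lower and passed. Of 12 measured neutrophil and granulocyte precursor markers 11 were lower (median -0.84, none passing), of 11 T and NK cell markers all were (median -0.42, 3 passing), and of 10 B and plasma cell markers all were (median -0.79, 5 passing). Of 10 dendritic cell markers 8 were lower (median -0.38, 2 passing). Among 7 osteoclast markers 5 were lower with a median of -0.08, and the largest difference was in the acid phosphatase Acp5, also a macrophage gene, at -0.95 (adjusted p 0.0824). Calcr, on the same list, was higher by 0.43 without overlap (adjusted p 0.414). The 7 club and ciliated cell markers had a median of 0.05, with 2 lower, and only 2 mast cell markers, Kit and Hdc, were measured, both higher.

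**Figure D4:**
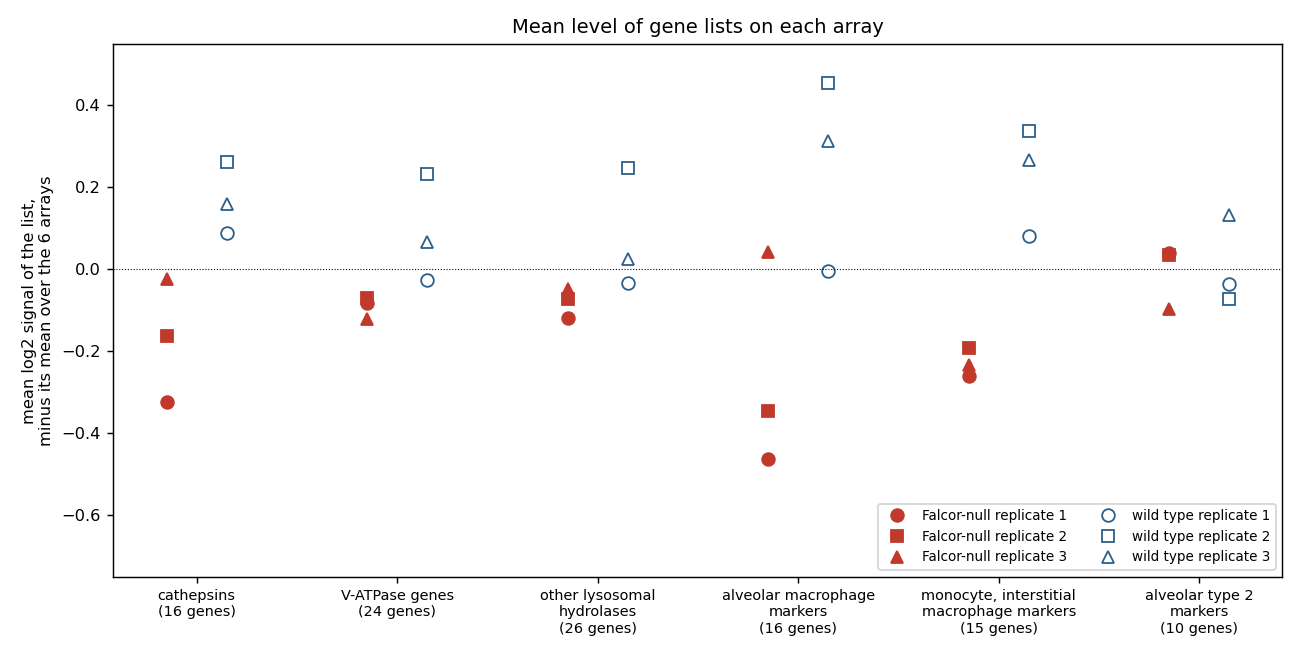
Mean log2 signal of 6 gene lists on each array, minus the list's mean over the 6 arrays, with Falcor-null (filled red) left of wild type (open blue) and 1 marker shape per replicate number. For the cathepsins and the alveolar macrophage markers Falcor-null replicate 1 is lowest, Falcor-null replicate 3 is the highest of its group and wild type replicate 2 is highest. The groups overlap for the alveolar macrophage markers, where Falcor-null replicate 3 (8.76) lies above wild type replicate 1 (8.71), and for the alveolar type 2 markers.

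Most other lysosomal genes on the lists were lower as well. Of all genes 49.2% were lower and 0.556% passed. Of 26 other lysosomal hydrolases 18 were lower, with a median log2 difference of -0.09, and 1 passed. That was Asah1, the acid ceramidase, at 8.95, 8.92 and 8.95 on the Falcor-null arrays, against 9.52, 9.65 and 9.51 on the wild-type arrays. It fell 1.54-fold (log2 difference -0.62, SE 0.08, adjusted p 0.0237), with groups far apart and almost no spread in Falcor-null. With 1 array left out it passed only without wild type replicate 1 (adjusted p 0.0479); without any other array the adjusted p was between 0.0616 and 0.0949, and with the replicate number as a block it was 0.0894, while the difference stayed between -0.65 and -0.58.

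Lysosomal membrane and associated proteins were lower in 16 of 19, with a median of -0.12 and none passing; Cd63, a tetraspanin of late endosomes, gave -0.53 (adjusted p 0.0956) and Laptm5, of immune cell lysosomes, -0.64 (adjusted p 0.166). Of 7 other lysosomal peptidases 5 were lower (median -0.27, none passing), among them the carboxypeptidase Scpep1 at -0.47 (adjusted p 0.133) and Lgmn, the legumain that processes several cathepsins, at -0.36 (adjusted p 0.296). Sorting genes of the mannose 6-phosphate route, which deliver cathepsins to the lysosome, were lower in 7 of 9 with a median of -0.04. The V-ATPase partners outside the symbol rule were lower in 8 of 12 with a median of -0.09. None of these partners had an unadjusted limma p under 0.05, against 13.8% of all genes. Ragulator and other genes that dock mTORC1 at the lysosome were lower in 10 of 13 with a median of -0.08, none passing.

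Inhibitors of cysteine cathepsins did not all lie on the same side. Of 4 measured cystatins and stefins, none passed. Cst3, or cystatin C, the secreted inhibitor, read 11.13, 11.16 and 11.25 on the Falcor-null arrays, against 11.06, 10.94 and 11.01 on the wild-type arrays, a difference of 0.17 (adjusted p 0.380). Those groups did not overlap, with Falcor-null higher. Cstb, the inhibitor inside the cell, differed by -0.54 (adjusted p 0.245), Cst7, of immune cells, by -0.34 (adjusted p 0.199), and the neutrophil stefin Stfa2l1 by -1.63 (adjusted p 0.212) with wild type replicate 3 at 7.82 against 5.75 and 5.97 on the other wild-type arrays.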

How the data were processed

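RNA of whole lung, from 3 samples labelled Falcor-null and 3 labelled wild type, was read on 1 array each, with biotin as the only label, per the labels' protocols. The authors deposited 1 log2 signal for each probe set and array. Per the submitters' processing notes, oligo, RMA and limma were used; no versions are given. RMA includes quantile normalization, which would remove a shift shared by most genes. No detection calls were used here, so signal over background is unknown, and precision is limited by having 3 arrays in each group. Of 24173 probe sets, 17476 with exactly 1 symbol in the platform annotation were used, 1308 had several symbols and 5389 none there. The probe set with the highest mean stood for each gene.

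Groups were compared per gene with limma 3.58.1 (lmFit and eBayes, R 4.3.3), two-sided, without covariates, and p-values were adjusted over 16537 genes by the Benjamini-Hochberg method at a threshold of 0.05. Each difference is the log2 mean of Falcor-null less that of wild type, and summed signals are on the linear scale. The fit was also run on simulated data with genes drawn independently and no array or day effect, which leaves such effects unchecked. Members and lists were chosen with earlier results of these data known. Members given by array were, by rule, the 8 of each family with the smallest p, the 4 brightest of each and any whose probe sets differ in sign; Atp6v1a, Ctsw and Cst3 were given so after their values were seen. The labels do not say that a replicate number marks a shared animal or batch, so the numbers were not used as pairs. Deviations of same-numbered arrays from their group means had correlations of 0.02, -0.00 and -0.08. Figures were drawn with matplotlib 3.10.9.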

Additional observations from a re-analysis of the deposited data

How the results depend on the processing

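No member passed at an adjusted p under 0.05 in any alternative run (0 in each), and none at an adjusted p under 0.1 in the fit reported above; at an unadjusted p under 0.05 there were 11. That count, followed through the alternatives after the data were seen, ran from 9 to 12 under other scalings, variance models, filters and probe set rules, and from 4 to 12 with 1 array left out. Over all genes, 92 passed; this was 280 at an adjusted p under 0.1, 32 with the replicate number as a block, and 18 to 89 with 1 array left out. The 20 members chosen by rule kept their direction and stayed short of the threshold in all 319 alternative values. Most of the 20 were chosen for a small p on these same arrays, so their kept direction is no independent check. Some other members reversed, such as Atp6v1e1 (from -0.09 to 0.01) and Ctso (from -0.01 to 0.05) without wild type replicate 2. The smallest adjusted p among the 20 was 0.0894, for Ctsk with an intensity trend. Without wild type replicate 2, 13 of the 20 shrank by more than 1.5 times. With 1 array left out the cathepsin median lay between -0.37 and -0.23 and the V-ATPase median between -0.19 and -0.07. Leaving out genes below the median signal left 29 members tested, and Atp6v0a4 was not among them. The cause of these changes was not tested. For the 6 members below the 10th percentile of mean signal no measure of background was used here.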
